A study of Saccharomyces cerevisiae with 2 samples.

Results

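Respiratory chain and TCA cycle genes are the 49 nuclear genes of budding yeast that were named for the subunits of complexes II, III, IV and V, for cytochrome c, for the NADH dehydrogenases of the inner mitochondrial membrane and for the enzymes of the TCA cycle. They were taken from a fixed list by symbol, and all 49 were found among the 6002 nuclear protein-coding genes of the sacCer3 (R64) annotation. The accessibility of their promoters to DNA methyltransferases was measured by nucleosome occupancy and methylome sequencing (NOMe-Seq), in which an added methyltransferase marks cytosines that are not covered by nucleosomes or other proteins and bisulfite sequencing reads the marks. The haploid laboratory strain S288C was grown at 30 °C in YPD, a rich medium with dextrose. Its cells were fixed with formaldehyde and permeabilised with the detergent NP40. The nuclei were treated with 1 of 2 enzymes for 1 h at 37 °C. CCMT is the M.CviQIX methyltransferase without its N-terminal extension and methylates the first C of CC. GCMT is M.CviPI and methylates the C of GC. One library per enzyme was analysed here, from wild-type cells in 1 growth condition, and no library without enzyme was analysed here. The study's supplement lists its CCMT yeast library under another sample than the one used here, so the CCMT library may not be the one plotted in the study. Levels over cytosines and reads therefore describe these 2 libraries, and no p-value is given.

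The CCMT library had 900211 listed nuclear cytosines, all in CC, at a mean coverage of 31.6. The GCMT library had 839016, all in GC, at a mean coverage of 13.1. Coverage summed over these cytosines came to 28485123 with CCMT and 10967078 with GCMT. These sums are not numbers of sequenced reads, since a read counts once at each listed cytosine that it spans. Read counts of regions below are counted in the same way. The mean methylation level over the listed cytosines was 9.71% with CCMT and 10.1% with GCMT. Around the 49 genes, 4604 CC cytosines and 4444 GC cytosines were covered, at a mean of 32.1 reads with CCMT and 12.9 reads with GCMT. The 2 enzymes read mostly different cytosines, and share only those of GCC, whose middle base is both the C of GC and the first C of CC. GC reads the same on both strands, so a single GC site can give 2 GCMT cytosines. The GCMT cytosine counts below can therefore be up to 2 times the number of GC sites.

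Yeast respires through a chain without a proton-pumping complex I. NADH dehydrogenases pass electrons from NADH to ubiquinone, succinate dehydrogenase (complex II) passes them from succinate, complex III passes them on to cytochrome c, and complex IV passes them to oxygen. Complex V, the ATP synthase, uses the proton gradient to make ATP, and the TCA cycle supplies the NADH and succinate. Many of these genes are repressed by glucose and are activated by the HAP complex (Hap2, Hap3, Hap4 and Hap5), which binds CCAAT, and some are activated with heme and oxygen by Hap1. Genes for hypoxic isoforms are repressed in air by Rox1. S288C carries a transposon insertion in HAP1 that weakens its product, which limits this strain as a model of Hap1 regulation.

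The methylation level of a region was the mean over its cytosines with at least 5 reads, and regions with under 3 such cytosines were left out. The promoter region ran from -250 to -100 relative to the first base of the start codon, and the gene body from 100 to 500, cut at the stop codon. The promoter level of the 49 members had a median of 22.1% with CCMT (quartiles 14.8% and 27.4%, range 6.01% to 36.5%), against 17.97% over the other genes (quartiles 11.8% and 24.8%). With GCMT the median was 24.4% over the 47 members with enough cytosines (quartiles 17.9% and 30.9%, range 7.69% to 42.7%), against 19.2% over the other genes (quartiles 11.8% and 27.3%). The quartiles of the members overlapped those of the other genes with both enzymes. CYT1 and ATP1 had too few GC cytosines in the promoter region to be given a GCMT level.

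In the gene body the members were not set apart. Their median there was 7.96% with CCMT and 8.36% with GCMT, against 7.95% and 7.79% over the other genes. Farther upstream, from -600 to -400, the median of the members was 13.6% with CCMT and 12.5% with GCMT, against 9.42% and 9.37% over the other genes. Of the 47 members measured with both enzymes, 31 lay above the median of the other genes with both and 10 below it with both. Among the other genes, 38.5% lay above it with both and 37.9% below it with both. The extremes were less marked, with 9 of 47 members in the highest 25% of all genes with both enzymes, against 14.2% of the other genes, and 4 of 47 in the lowest 25%, against 15.2%.

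**Figure D1:**
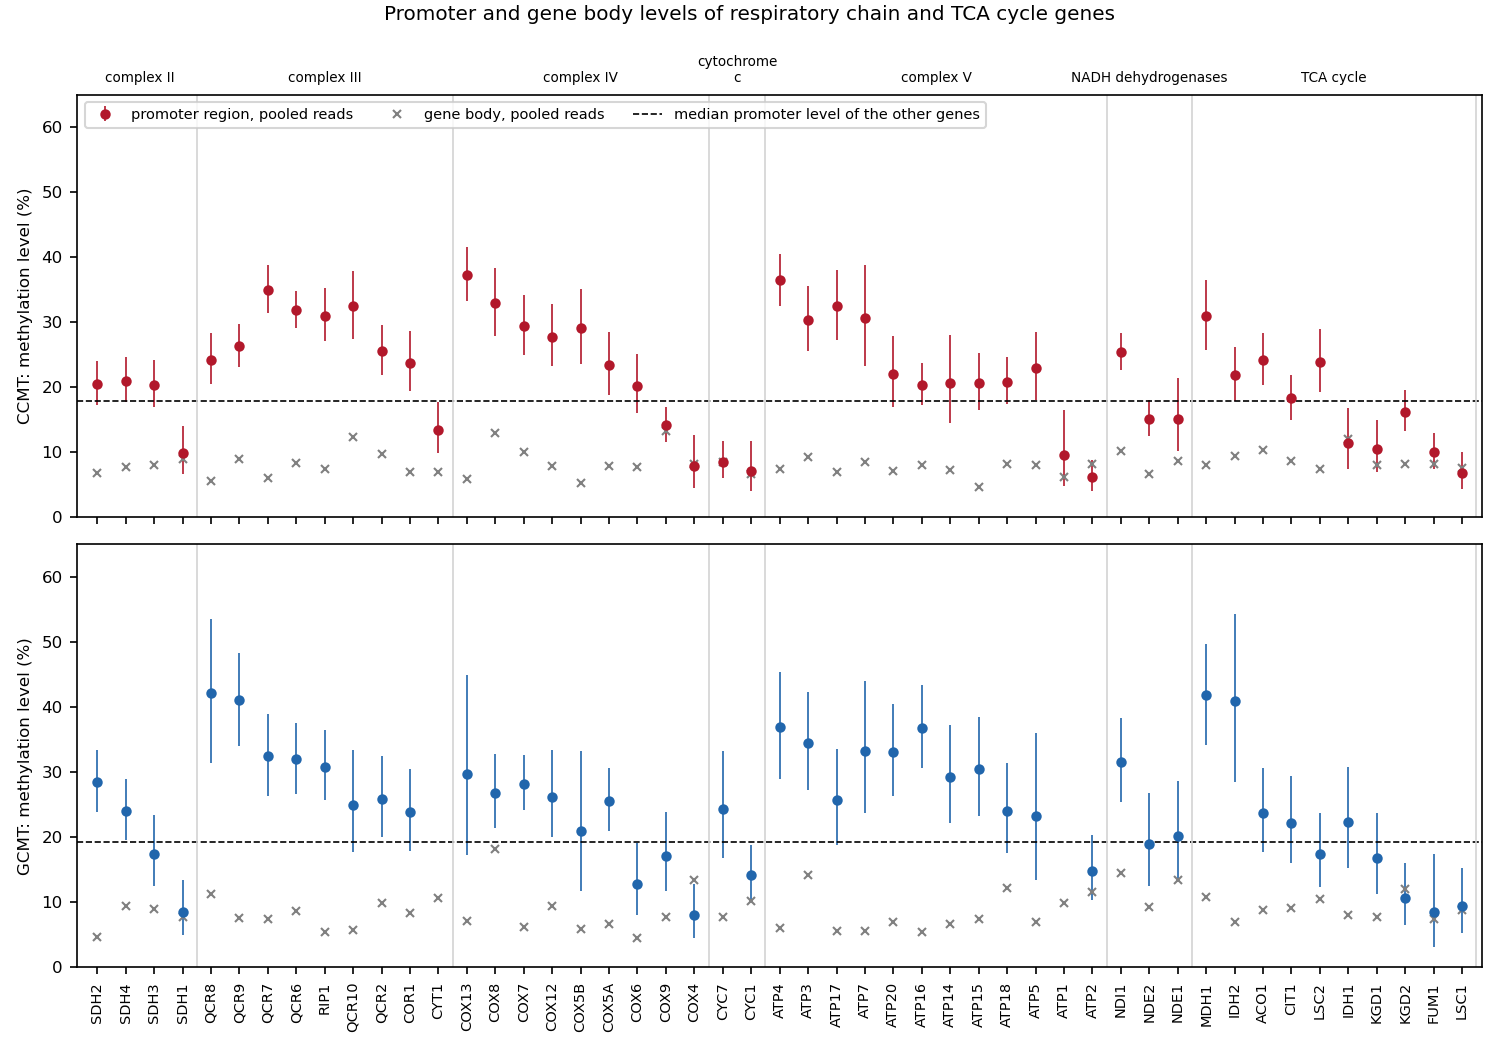
Methylation level (%) in the promoter region of each member by gene group, with CCMT (top) and GCMT (bottom). Points are pooled reads with their exact 95% binomial interval, crosses are gene bodies, and the dashed line is the median promoter level of the other genes. Complexes III and V lie mostly above the line, and CYC1, COX4, SDH1, ATP2 and the lower TCA cycle genes lie near their gene bodies.

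A promoter level at least 2 times the gene body level was the call used for an open promoter. With CCMT it was met by 35 of 49 members, against a background of 56.4% of all genes tested. With GCMT it was met by 35 of 46 members, against 61.1% of all genes. With both enzymes it was met by 32 of 46 members, against 45.3% of all genes. The promoter level was higher than the gene body level with both enzymes in 42 of 46 members, against 4346 of 5403 other genes. Promoter levels with CCMT and with GCMT were correlated across the 47 members (Pearson 0.67, Spearman 0.71), and across the other genes (Pearson 0.64). Both libraries were made from one strain in one condition, so this describes how far 2 sets of cytosines, which share those of GCC, gave the same order.

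The mean profile of the members rose highest upstream of the start codon. It reached 24.9% at -244 with CCMT and 28.6% at -161 with GCMT, against 21.5% at -148 and 23.0% at -142 over the other genes. Around the start codon, from -50 to 50, the mean of the members was 8.78% with CCMT and 9.40% with GCMT, against 8.57% and 8.94% over the other genes. The halfway level was the mean of the highest level and the gene body level of a profile. With CCMT the members stayed above it from -424 to -105, a stretch of 320 bp, against 215 bp from -285 to -71 over the other genes. With GCMT the stretch was shorter in the members, 182 bp against 249 bp, and their profile dipped below the halfway level and rose again farther upstream.

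**Figure D2:**
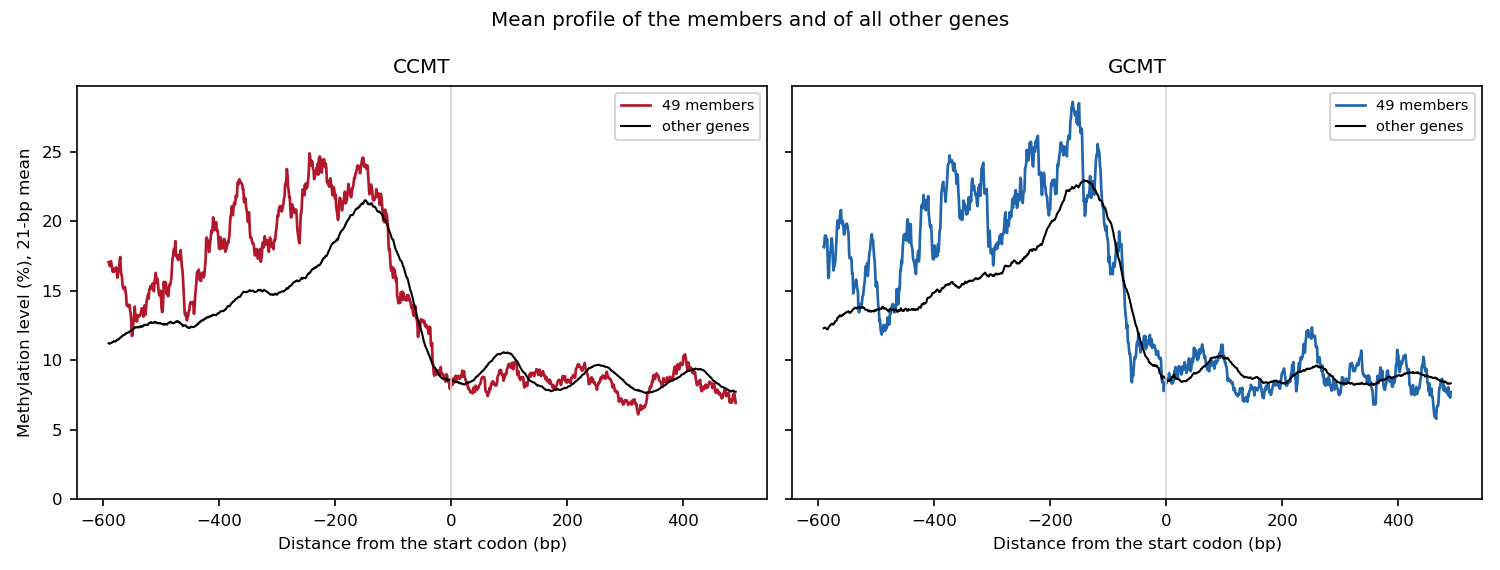
Mean methylation level (%) by distance from the start codon (bp), smoothed over 21 bp, with CCMT (left) and GCMT (right). Coloured lines are the 49 members and black lines all other genes. The members lie above the other genes through most of the region upstream of -150 and fall to about the same level at the start codon.

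Complex III, which passes electrons between ubiquinol and cytochrome c, had high promoters throughout but for CYT1. The median of its 9 genes was 26.1% with CCMT and 30.7% with GCMT over the 8 that could be measured. All 8 lay above the median of the other genes with both enzymes, and all 8 met the call with both. QCR8, a small subunit, had 23.9% ± 9.36 (SD over 17 cytosines) with CCMT and 42.7% ± 26.4 (8 cytosines) with GCMT. QCR9, another small subunit, had 26.1% ± 11.5 (20 cytosines) and 40.5% ± 16.3 (14 cytosines). The lowest of the complex by the mean of both levels was COR1, a core subunit, at 23.8% ± 12.7 (16 cytosines) with CCMT and 21.5% ± 16.1 (14 cytosines) with GCMT. The other subunits lay between these or above them in CCMT, with QCR7 at 34.5%, QCR10 at 33.4%, QCR6 at 32.1%, RIP1, the Rieske iron-sulfur protein, at 30.4% and QCR2, the other core subunit, at 26.1%. Their GCMT levels were 31.4% for QCR7, 24.6% for QCR10, 31.7% for QCR6, 30.1% for RIP1 and 24.4% for QCR2. CYT1, cytochrome c1, had a CCMT promoter level of 13.5% ± 6.35 (10 cytosines).

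Most complex V promoters also lay above the other genes. Its median was 21.8% with CCMT over 12 genes and 29.1% with GCMT over 11 genes, 10 of the 11 measured with both enzymes lay above the other genes' median with both, and 9 of the 10 that could be compared met the call with both. ATP4, a stator stalk subunit, had 36.0% ± 8.35 (18 cytosines) with CCMT and 34.7% ± 25.5 (11 cytosines) with GCMT, the highest of the complex by the mean of both. ATP3, the gamma subunit of the central stalk, had 30.1% and 35.3%. The remaining 8 stalk, membrane and regulatory subunits had CCMT levels between 19.9% in ATP16 and 32.6% in ATP17, and GCMT levels between 21.6% in ATP5 and 34.2% in ATP20. The alpha and beta subunits of the catalytic head had the lowest CCMT levels of the complex. ATP2, the beta subunit that carries the catalytic sites, had 6.01% ± 5.71 (14 cytosines) with CCMT and 13.5% ± 12.6 (10 cytosines) with GCMT, the lowest of the complex. ATP1, the alpha subunit, had 10.8% ± 8.70 with CCMT over 11 cytosines.

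Complex IV, cytochrome c oxidase, had a median of 27.4% with CCMT and 24.6% with GCMT over 9 genes. Of these, 6 lay above the other genes' median with both enzymes and 6 met the call with both. COX13, a small subunit, was highest at 36.5% ± 11.8 (18 cytosines) with CCMT and 31.2% ± 6.85 (4 cytosines, 47 reads) with GCMT. COX8 had 32.0% and 25.02%, COX7 had 30.1% and 26.6%, and COX12 had 27.4% and 26.1%. COX4, a subunit needed for assembly of the enzyme, was the lowest of all members by the mean of both levels, at 8.63% ± 5.70 (8 cytosines) with CCMT and 7.69% ± 5.42 (10 cytosines) with GCMT. COX9 was also low, at 14.2% and 15.9%, and COX6 had 19.5% and 13.7%. In COX6, 131 of the 151 bases of the promoter region were coding sequence of another gene, its upstream neighbour YHR050W-A lying 59 bp away.

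Complex II, succinate dehydrogenase, had 3 genes that met the call with both enzymes and 1 that did not with either. SDH2, the iron-sulfur subunit, was highest, at 20.7% ± 8.84 (17 cytosines) with CCMT and 27.0% ± 19.2 (28 cytosines) with GCMT. SDH4 and SDH3, the membrane anchors, had 19.8% each with CCMT, and 24.2% and 17.3% with GCMT. SDH1, the flavoprotein subunit, had 9.91% ± 7.73 (9 cytosines) and 8.86% ± 11.6 (16 cytosines), close to its gene body levels of 8.93% and 7.56%.

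Among the NADH dehydrogenases, NDI1, which faces the matrix, had the highest promoter, at 25.2% ± 7.61 (22 cytosines) with CCMT and 30.7% ± 12.9 (14 cytosines) with GCMT. NDE1 and NDE2, which face the intermembrane space, were lower. NDE1 had 14.8% ± 14.5 (6 cytosines) and 18.4% ± 14.8 (12 cytosines), and NDE2 had 15.3% and 20.7%.

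The TCA cycle genes as a group were not set apart from the other genes. Their median was 17.6% with CCMT and 19.2% with GCMT over 10 genes, against 17.97% and 19.2% over the other genes, and 4 of 10 lay above the other genes' median with both enzymes while 4 of 10 lay below it with both. The call with both enzymes was met by 4 of 10. MDH1, mitochondrial malate dehydrogenase, had the highest mean of both levels of all members, at 30.4% ± 17.1 (12 cytosines) with CCMT and 41.6% ± 22.1 (20 cytosines) with GCMT. LSC1, the alpha subunit of succinyl-CoA ligase, was lowest in the group, at 6.77% ± 6.30 (10 cytosines) and 10.1% ± 10.2 (15 cytosines). Its partner LSC2, the beta subunit, had 23.2% and 16.0%. FUM1, fumarase, had 10.02% with CCMT and 10% with GCMT, and KGD1, the first enzyme component of the 2-oxoglutarate dehydrogenase complex, had 11.0% and 17.4%. KGD2, the second component, had 15.2% and 10.6%. The others were ACO1, aconitase, at 25.1% and 23.4%, CIT1, citrate synthase, at 20.03% and 20.98%, and the isocitrate dehydrogenase subunits IDH2, at 22.1% and 40.4%, and IDH1, at 11.8% and 23.7%.

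By the mean of both levels the 5 highest members were MDH1 at 36.0%, ATP4 at 35.4%, COX13 at 33.8%, QCR8 at 33.3% and QCR9 at 33.3%. The 95% binomial intervals of the pooled GCMT reads of these genes all overlapped (MDH1 34.2% to 49.7%, ATP4 28.9% to 45.4%, COX13 17.3% to 44.9%, QCR8 31.4% to 53.5%, QCR9 34.1% to 48.3%), so their order with GCMT was not resolved. With CCMT, COX13 (33.2% to 41.6%) and ATP4 (32.5% to 40.6%) lay above QCR9 (23.2% to 29.8%) and QCR8 (20.5% to 28.3%) without overlap. The 5 lowest were COX4 at 8.16%, LSC1 at 8.46%, SDH1 at 9.38%, CYC1 at 9.54% and ATP2 at 9.73%. Their intervals overlapped one another with both enzymes, and each was below all 5 of the highest members without overlap with CCMT. With GCMT the interval of COX13 overlapped those of CYC1 (10.4% to 18.8%) and ATP2 (10.3% to 20.4%). The highest and lowest members were picked by these same levels, so their separation is a description and was not tested. The place of the region mattered for some of these genes. With the promoter region widened to -300 to -50, CCMT levels were 13.4% for LSC1, 16.2% for SDH1 and 11.8% for CYC1, and the GCMT level of COX13 was 16.7%. Without the bases of DMO1 the CCMT level of ATP2 was 1.11%. These intervals cover counting error only, since reads made by PCR are not independent molecules and neighbouring cytosines share reads.

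Several low promoters were not closed throughout but were open farther upstream. The most open 50-bp window between -600 and the start codon was found for each gene as the window with the highest mean of both levels, among those with at least 2 cytosines and 20 reads in each library. With GCMT those 2 cytosines can be the 2 strands of a single GC site. Because the window was chosen for being highest, its level is a description and was not tested. In ATP2 the window lay at -400 to -351, with 45.2% with CCMT and 41.3% with GCMT, upstream of a promoter region in which 120 of 151 bases belong to the coding sequence of the neighbouring gene DMO1. In CYT1 it lay at -490 to -441, with 30.1% and 39.5%, and in ATP1 at -420 to -371, with 35.2% and 61.3%. In COX4 it lay at the far end, from -600 to -551, with 30.7% and 52.3%. In SDH1 it lay at -570 to -521, with 26.1% and 51.6%, next to the divergent gene AVT3, whose start codon is 653 bp away. In LSC1 it lay at -400 to -351, with 28.2% and 44.0%. FUM1 was an exception, with its most open window at -310 to -261 reaching 16.9% and 17.1%.

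Over all members the centre of the most open window had a median of -245, against -195 over the other genes, and 29 of 49 (59.2%) lay within 300 bp of the start codon, against 67.0% of the other genes. The level in the window had a median of 33.6% with CCMT and 42.5% with GCMT, against 29.7% and 36.2%. In complex III the centre had a median of -175, and 7 of 9 genes had it within 300 bp. In the TCA cycle the median was -280, and in the NADH dehydrogenases, with none within 300 bp, it was -575. NDI1 had 33.6% and 35.35% in its window, against 25.2% and 30.7% in its promoter region. In NDI1 and NDE1 the window was the farthest one searched, from -600 to -551, so -575 is the edge of the search. Windows that far upstream can lie in the promoter of the neighbouring gene, and to which gene an opening belongs was not tested.

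**Figure D3:**
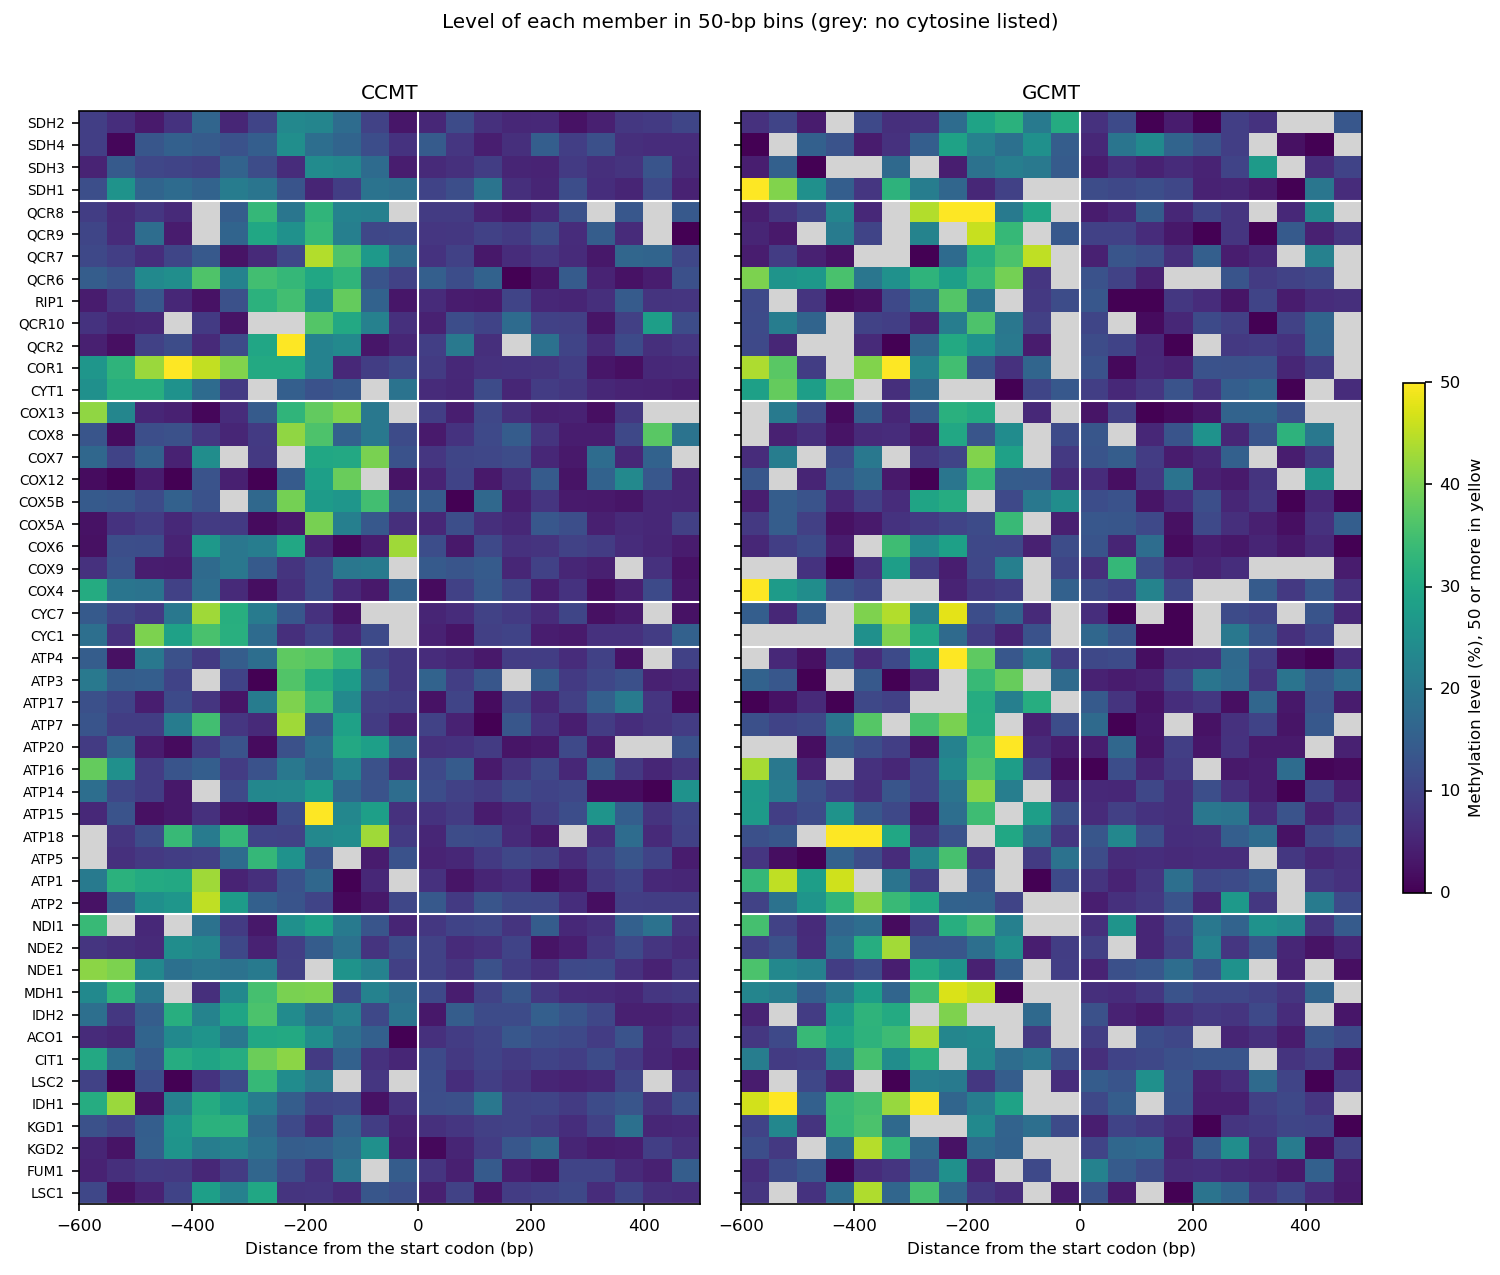
Methylation level (%) of each member in 50-bp bins by distance from the start codon (bp), with CCMT (left) and GCMT (right), genes in the groups and order of the plot of promoter levels. Grey bins have no listed cytosine. Most rows are bright between -300 and -100, while COX4, CYT1, ATP1, ATP2, CYC1 and CYC7 are bright farther upstream.

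Yeast carries aerobic and hypoxic isoforms of complex IV subunit 5 and of cytochrome c. COX5A and CYC1 are the isoforms used in air, and COX5B and CYC7 are those made when oxygen is low. In the promoter region COX5A had 23.7% ± 14.5 (9 cytosines, 311 reads) with CCMT and 24.6% ± 19.0 (20 cytosines, 328 reads) with GCMT. COX5B had 29.7% ± 9.32 (10 cytosines, 254 reads) and 21.1% ± 17.5 (4 cytosines, 62 reads). The difference, COX5A minus COX5B, was -6.08 percentage points with CCMT and 3.54 points with GCMT. The intervals of the pooled reads overlapped with both enzymes, at 18.9% to 28.6% for COX5A and 23.6% to 35.1% for COX5B with CCMT, and at 20.97% to 30.7% for COX5A and 11.7% to 33.2% for COX5B with GCMT. The intervals of the difference were -13.6 to 1.45 points with CCMT and -8.26 to 15.4 points with GCMT, so a difference between the promoters was not detectable at this depth. Without the cytosines of GCC it came to 11.0 (CCMT) and 9.33 (GCMT) points. With the region widened to -300 to -50 it came to -13.5 (CCMT) and -1.99 (GCMT) points. The sign was thus alike with both enzymes in each of these settings, and opposite between the settings.

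The opening of COX5A took up a short stretch, with 39.8% in the CCMT bin from -200 to -151 (2 cytosines). The GCMT bin from -150 to -101 had 34.0% (12 cytosines), and no bin upstream of -200 passed 14.7% with either enzyme. In COX5B CCMT levels of 26.3% to 39.5% ran through the bins from -250 to -51, over 2, 7, 1 and 1 cytosines. GCMT had 31.0% in the bin from -250 to -201 and 11.1% in that from -150 to -101, over 2 cytosines each. The widths of these openings thus rest on few cytosines. Around the start codon, from -50 to 50, COX5A had 5.81% with CCMT and 6.22% with GCMT, against 14.7% and 20.2% in COX5B. There the intervals did not overlap with GCMT (3.20% to 11.8% for COX5A, 13.2% to 31.0% for COX5B) and overlapped with CCMT (2.94% to 10.2% for COX5A, 8.30% to 22.7% for COX5B). COX5B has an intron and lies 375 bp from its upstream neighbour HOS4.

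CYC1 and CYC7 had low levels in the promoter region with CCMT and were open farther upstream. CYC1 had 6.96% ± 4.82 (9 cytosines, 194 reads) with CCMT and 12.1% ± 11.5 (24 cytosines, 288 reads) with GCMT, against 8.62% ± 4.65 (10 cytosines, 407 reads) and 22.7% ± 19.2 (14 cytosines, 115 reads) in CYC7. The difference, CYC1 minus CYC7, was -1.66 percentage points with CCMT and -10.6 points with GCMT. The intervals overlapped with both enzymes, at 4.001% to 11.8% for CYC1 and 6.06% to 11.8% for CYC7 with CCMT, and at 10.4% to 18.8% for CYC1 and 16.8% to 33.2% for CYC7 with GCMT. The interval of the GCMT difference itself, from the combined half-widths, was -19.8 to -1.37 points and did not include 0, and that of the CCMT difference was -6.49 to 3.18 points. These half-widths cover counting error of pooled reads only and leave out the spread between cytosines. They are therefore too narrow to settle whether the GCMT difference is apart from 0. With the region widened to -300 to -50 the difference came to -3.66 (CCMT) and -4.12 (GCMT) points. With CCMT reads thinned to the GCMT coverage the CCMT difference was 0.0799 points, near 0 on the other side. In CYC1 the CCMT bins from -500 to -301 had 28.5% to 40.2%, and GCMT had 40.3% in the bin from -350 to -301. In CYC7 the bin from -400 to -351 had 42.9% with CCMT and 40.4% with GCMT. In the bin from -250 to -201, inside the promoter region, CYC7 had 13.5% with CCMT over 3 cytosines and 47.9% with GCMT over 4 cytosines, at different bases of the bin. From -600 to -400 CYC1 had 26.0% ± 12.8 with CCMT over 11 cytosines, against 13.6% ± 6.99 over 23 cytosines in CYC7, and these intervals did not overlap (21.5% to 35.4% for CYC1, 11.5% to 16.1% for CYC7). No GC cytosine was listed for CYC1 there, so GCMT gave no second reading. CYC1 is divergent from ANB1, 953 bp away, and CYC7 from UTR4, 484 bp away.

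**Figure D4:**
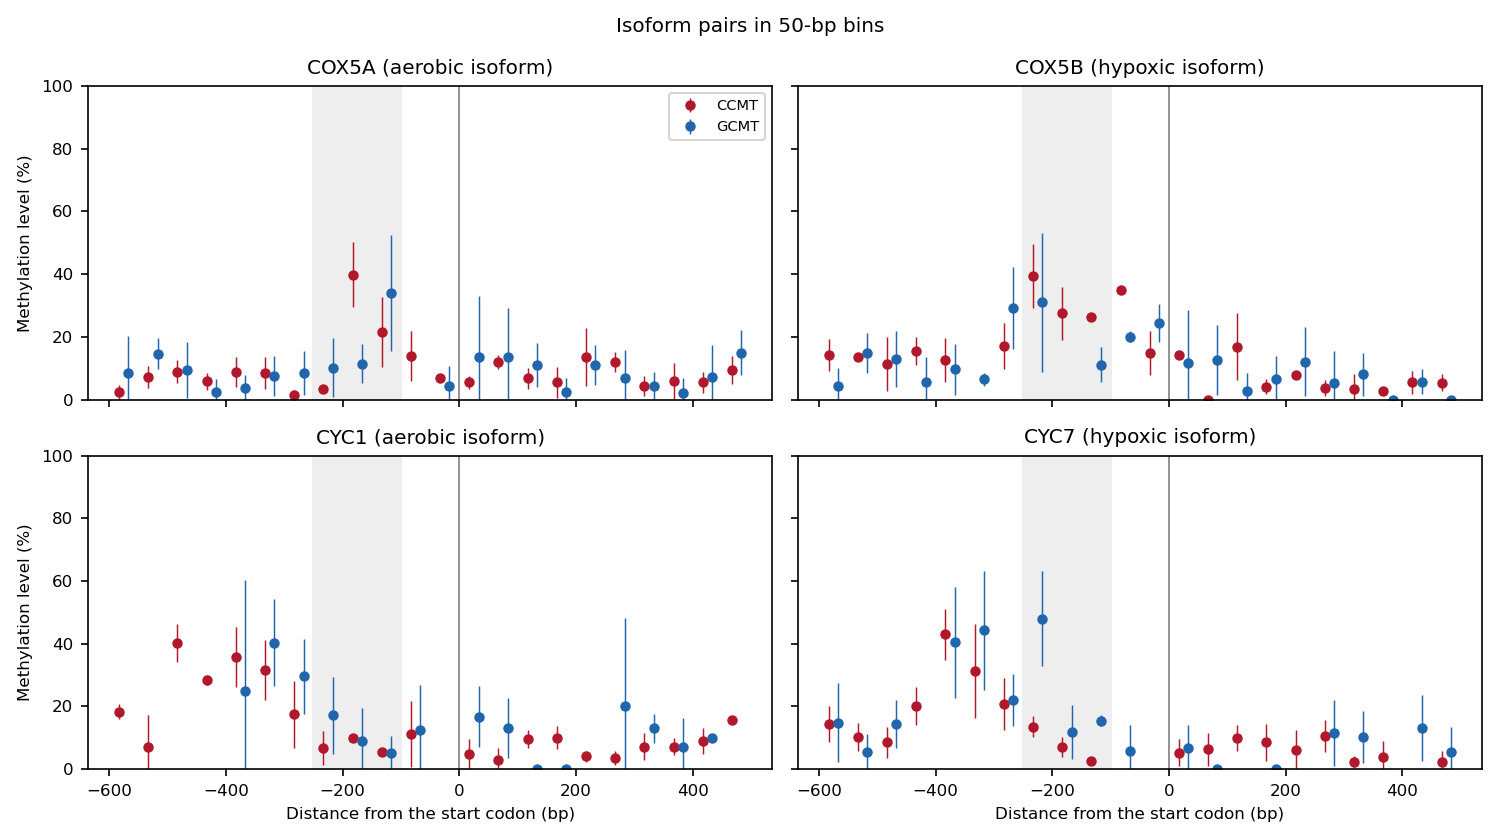
Methylation level (%) of COX5A, COX5B, CYC1 and CYC7 in 50-bp bins by distance from the start codon (bp). Points are means over the cytosines of a bin with CCMT (red) and GCMT (blue), bars are SDs over cytosines where a bin has more than 1, and grey marks the promoter region. COX5A and COX5B are open within the grey region, and CYC1 and CYC7 mainly upstream of it.

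The most open windows of the isoform genes are shown because they hold the highest levels upstream of each gene, inside the promoter region in COX5A and COX5B and upstream of it in CYC1 and CYC7. They are written along the coding strand, 5′ to 3′, from the RefSeq sequence of sacCer3. Capitals mark letters that match a motif searched on both strands. These were CCAAT (the HAP complex core), ATTGTT (the Rox1 core), the Hap1 motif, TTACCCG (Reb1), CACGTG (Cbf1) and the Abf1 motif. CCAAT on the other strand reads ATTGG.
COX5A, chrXIV:531555-531604, top strand: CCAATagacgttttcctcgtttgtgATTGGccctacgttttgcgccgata
COX5B, chrIX:154972-155021, top strand: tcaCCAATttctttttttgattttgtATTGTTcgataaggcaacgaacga
CYC1, chrX:525965-526014, top strand: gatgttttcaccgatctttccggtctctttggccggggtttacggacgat
CYC7, chrV:80328-80377, bottom strand: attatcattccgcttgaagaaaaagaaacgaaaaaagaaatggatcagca

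The COX5A window had 30.2% with CCMT and 42.6% with GCMT and held CCAAT on both strands. The COX5B window had 39.5% and 31.0% and held CCAAT and the Rox1 core. The windows of CYC1, at 33.3% and 51.2%, and of CYC7, at 42.9% and 40.4%, held no match. No match says only that these letters are not in the window.

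CCAAT was frequent in the promoter regions of the members. It was found on either strand in 33 of 49 (67.3%), against 22.9% of the other genes. In the whole 600 bp upstream it was found in 44 of 49 members (89.8%), against 70.2%. The matches of the members were gathered in one stretch, with 34.7% of the members having one in the bin from -250 to -201 and 30.6% in the bin from -200 to -151, against 8.79% and 8.29% of the other genes. From -600 to -551 the order was the other way, with 6.12% of the members against 11.3% of the other genes. By group, the promoter region held CCAAT in 11 of 12 genes of complex V, 8 of 9 of complex IV, 7 of 9 of complex III, 3 of 4 of complex II, 1 of 3 NADH dehydrogenases, 3 of 10 TCA cycle genes and neither cytochrome c gene.

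Members with CCAAT in the promoter region had the more open promoter regions. The 33 members with it had a median of 25.1% with CCMT and 26.6% with GCMT. The 16 members without it had a median of 12.2% with CCMT, and the 14 of them that could be measured had 16.7% with GCMT. Among the other genes the medians with CCAAT were 17.3% and 18.8%, and those without it 18.2% and 19.3%, so having the letters did not go with a higher level there. Within the respiratory chain alone, the 30 members with it had 24.7% and 26.8%, and the 9 without it had 10.8% with CCMT and, over 7 genes, 18.4% with GCMT. The members without it were open at another place. Their most open window had a median centre of -375 and median levels of 33.4% with CCMT and 44.1% with GCMT, and that of the members with it had a centre of -205 and levels of 33.6% and 42.0%. No test was made of these differences, and the group of a gene and the position of its opening moved together with the presence of CCAAT.

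**Figure D5:**
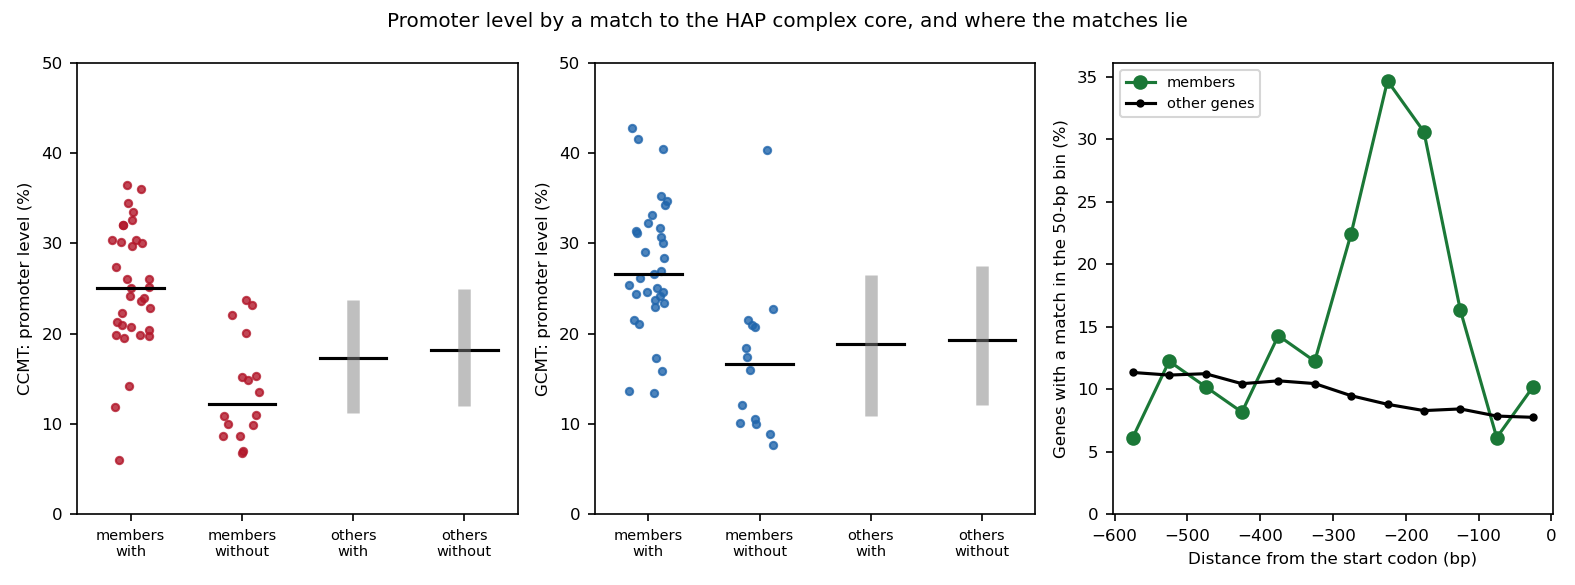
Promoter level (%) of members with and without a match to the HAP complex core in the promoter region, with CCMT (left) and GCMT (middle), points being genes and black lines medians, beside the other genes with and without it (grey bars span the quartiles). At right, the percentage of genes with a match in each 50-bp bin, highest in members at 34.7% from -250 to -201.

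Inside the most open window itself CCAAT was found in 22 of 49 members (44.9%), against 8.66% of the other genes. It was there in 7 of 12 genes of complex V, 6 of 9 of complex IV, 4 of 9 of complex III, 2 of 4 of complex II and 3 of 10 of the TCA cycle. The 8 of these windows with the highest mean of both levels, isoform genes aside, are shown to give the surroundings of the letters.
ATP4, chrXVI:408915-408964, bottom strand: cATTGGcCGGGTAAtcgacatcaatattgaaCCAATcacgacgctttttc
COR1, chrII:135817-135866, bottom strand: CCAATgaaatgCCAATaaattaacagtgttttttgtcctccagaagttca
COX6, chrVIII:209345-209394, top strand: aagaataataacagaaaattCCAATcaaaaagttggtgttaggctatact
ATP2, chrX:647207-647256, top strand: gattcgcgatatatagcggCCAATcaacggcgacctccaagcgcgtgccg
COX8, chrXII:910146-910195, bottom strand: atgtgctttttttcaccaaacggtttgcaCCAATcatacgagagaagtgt
ATP16, chrIV:442429-442478, top strand: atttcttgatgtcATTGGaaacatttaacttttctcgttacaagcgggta
ATP7, chrXI:408200-408249, bottom strand: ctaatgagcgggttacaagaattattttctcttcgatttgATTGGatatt
RIP1, chrV:106990-107039, top strand: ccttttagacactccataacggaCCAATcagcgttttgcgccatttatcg

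In ATP4 the window had 41.1% with CCMT and 60.4% with GCMT, with a Reb1 match between the CCAAT matches. In COR1 it had 40.4% and 53.7%, in COX6 31.9% and 61.8%, in ATP2 45.2% and 41.3%, in COX8 41.6% and 42.0%, in ATP16, which encodes the delta subunit, 38.3% and 43.5%, in ATP7 42.9% and 36.0%, and in RIP1 38.7% and 40.1%. The window began at -220 in ATP4, -230 in COX8, -260 in ATP7 and -270 in RIP1, and farther upstream in COR1 (-350), COX6 (-360), ATP2 (-400) and ATP16 (-600). The GCMT levels of ATP4, COR1 and COX6 rest on 47, 34 and 21 reads, with 95% intervals of 40.1% to 69.8%, 35.1% to 70.2% and 38.4% to 81.9%.

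The first C of CCAAT is itself a CC cytosine, so CCMT reads it. At 39 such cytosines in the promoter regions of members the median level was 25.8%, against 24.5% over the other CC cytosines within 50 bp. Of these, 18 of 39 (46.2%) were below their surroundings. At 1018 such cytosines in the other genes the median was 18.8%, against 16.4% in the surroundings, and 36.1% were below them. The median difference from the surroundings was 0.695 percentage points in the members and 3.42 points in the other genes. The cytosine of CCAAT was thus about as accessible as its surroundings in the members, and lower levels over the motif were not seen as a rule. In the promoter region it was less high relative to its surroundings in the members than in the other genes. Over the whole 600 bp upstream the groups were alike. There the median difference was 2.52 points at 74 cytosines of members and 2.50 points at 3195 of other genes, and 36.5% and 38.9% were below their surroundings. These comparisons were not tested.

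The other motifs were found in fewer members. The Rox1 core lay in the promoter region of 14.3% of the members, against 17.2% of the other genes. COX5B, the hypoxic isoform, was 1 of the 7 members with it. Cbf1 matches lay in 4 members (8.16%), against 2.13% of the other genes, and in the 600 bp upstream in 22.4%, against 7.11%. Reb1 matches lay in 8.16%, against 6.81%, and Abf1 matches in 12.2%, against 10.9%. The Hap1 motif was found in the promoter region of QCR6 alone among the members, or 2.04%, against 0.0672% of the other genes. In the 600 bp upstream it was found also in CYT1, giving 4.08% of the members against 0.504%. Runs of at least 10 A or 10 T lay in 6.12% of the members, against 11.8%.

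The members were short genes, with a median span of 597 bp from start to stop codon, against 1206 bp over the other genes, and 21 of 49 were shorter than 500 bp, for which the gene body region was cut. Members under 500 bp had promoter medians of 23.7% with CCMT and 26.1% with GCMT, against 15.2% and 16.2% over the other genes of that length. Members of 500 bp or more had 20.4% and 21.5%, against 18.2% and 19.5%. Another coding sequence reached into the promoter region in 3 of 49 members (8 of 151 bases in QCR7, 131 in COX6 and 120 in ATP2), against 17.7% of the other genes. Leaving such genes out on both sides, the medians were 22.2% and 24.5% in the members, against 19.0% and 20.2% in the other genes. Among genes under 500 bp, another coding sequence reached in for 2 of 21 members (9.52%) and 253 of 872 other genes (29.0%). The comparison of these short genes above was not matched for this. Over other genes of any length where it reached in, the medians were 13.9% and 14.3%. An upstream neighbour transcribed in the opposite direction was present in 20 of 49 members (40.8%), against 52.1% of the other genes. The 20 divergent members had promoter medians of 17.6% with CCMT and 22.7% with GCMT, against 18% and 19.45% over the divergent other genes, so with CCMT they were not above them. The 29 tandem members had 23.9% and 25.2%, against 17.9% and 19.02% over the tandem other genes. The most open windows were centred at a median of -360 in the divergent members and of -205 in the tandem members.

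Genes that act on the pathway were also described, by lists that were chosen with earlier results of these data known. Of the 6 regulators (HAP1, HAP2, HAP3, HAP4, HAP5 and ROX1), ROX1 had too few CC cytosines, and 1 of the other 5 lay above the other genes' median with both enzymes. That was HAP2, a DNA-binding subunit, at 34.6% ± 15.1 with CCMT (11 cytosines) and 26.2% ± 28.8 with GCMT (4 cytosines). HAP4, the activating subunit that glucose limits, had 17.6% and 12.2%. The 29 assembly and maturation factors had a median of 20.01% with CCMT. With GCMT it was 15.1%, and 12 of the factors lay above with both enzymes, against 38.5% of the other genes, whose medians were 17.97% and 19.2%. Among these CYT2, cytochrome c1 heme lyase, had 36.9% and 38.7%, CYC3, cytochrome c heme lyase, had 36.3% and 32.1%, and CBP4, a complex III assembly factor, had 6.19% and 4.33%. Their most open windows lay close to the start codon, at a median centre of -135. The 17 related enzymes and carriers, such as the ADP/ATP carriers AAC1, AAC3 and PET9, had medians of 19.2% and 25.1%, with 7 above with both enzymes, a share near the 38.5% of the other genes. AAC1 had 24.4% and 28.8%, PET9 had 19.9% and 31.6%, and AAC3 had 24.2% and 15.1%, below the other genes' median with GCMT.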

How the data were processed

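Formaldehyde-fixed nuclei of strain S288C were treated with CCMT or GCMT, and bisulfite-converted DNA was sequenced by tPBAT. Mapping to sacCer3 was done by the authors with BMap, the alignments were summarised with in-house pipelines, versions of which are not given in the sources used here, and they deposited for each cytosine the read count (coverage) and the methylated fraction, both for sites with at least 5 reads. Bisulfite non-conversion raises all levels and was not measured here. Coverage times the deposited fraction gave whole methylated reads, within 0.00236 of a read with CCMT and 0.00086 with GCMT. Positions counted from 0 were turned to 1-based, and all listed cytosines lay in CC or GC of the RefSeq sequence.

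Region levels are means over cytosines with at least 5 reads and at least 3 cytosines, with the SD over cytosines. Intervals are exact binomial (Clopper-Pearson, 95%) on pooled reads. Genes were named by a fixed rule, which was the isoform pairs, the highest and lowest member of each group, and the 5 highest and 5 lowest members by the mean of both levels, with the other members given by level. Genes of the lists of regulators, assembly factors and related enzymes were named as examples, outside this rule. Members, lists and rules were chosen with earlier results of these data known. Alternatives changed the read minimum to 10, the cytosine minimum to 5, the promoter region to -300 to -50, pooled reads in place of means, left out GCC cytosines or coding bases, left the gene body uncut, or thinned the CCMT reads to the GCMT coverage (seed 20). The regions were tested on simulated data. Calculations ran in Python 3.11.15 with scipy 1.17.1, pandas 2.3.3 and numpy 2.4.6, and plots in matplotlib 3.10.9.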

Additional observations from a re-analysis of the deposited data

Results flagged for a closer look

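Some members differed in sign between the enzymes, and these differences were not tested. COX4 had a promoter level 0.755 percentage points above its gene body with CCMT, and -6.30 points relative to it with GCMT. For ATP2 the promoter minus gene body difference came to -1.90 points (CCMT) and 1.15 points (GCMT). KGD2, the second component of 2-oxoglutarate dehydrogenase, had 6.82 points with CCMT and -0.175 points with GCMT. LSC1 had -0.743 points with CCMT and 0.271 points with GCMT. COX5A minus COX5B came to -6.08 points (CCMT) and 3.54 points (GCMT). For the COX5 pair the sign was alike with both enzymes without GCC cytosines (11.0 points with CCMT, 9.33 with GCMT) and with the region from -300 to -50 (-13.5 points with CCMT, -1.99 with GCMT). The enzymes read mostly different cytosines, those of GCC being shared.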

How the results depend on the processing

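Of the recomputed medians, counts and isoform differences, 49 changed but stayed within the 95% interval of the value or, for counts, within 1.5 times, 3 reversed and 1 moved. A further 32 had exactly the reported value, among them GCMT values under thinning of the CCMT reads, which could not change. COX5A minus COX5B with CCMT was 11.0 points without GCC cytosines, and with GCMT it was -1.99 points with the promoter region from -300 to -50. CYC1 minus CYC7 with CCMT was 0.0799 points with thinned reads, which is near 0. The member median with GCMT was 21.5% with the wider promoter region, which takes in bases near the start codon. The causes were not tested. Of the recomputed levels of single named genes and gene groups, 142 changed but stayed within the interval used, 110 did not change and 23 moved. For gene groups that interval had the width of the member median's interval, centred on the group's own median. It does not measure the spread of the group itself. Among those with CCMT were COX5A at 40.5% without GCC cytosines and 14.6% with the wider region, CYC7 at 15.5%, LSC1 at 13.4%, CYC1 at 11.8% and SDH1 at 16.2% with the wider region, and ATP2 at 1.11% outside coding sequences and 9.24% with thinned reads. Among those with GCMT were COX13 at 16.7% and SDH1 at 14.6% with the wider region, CYC1 at 18.2% with at least 10 reads per cytosine, and ATP2 at 8.34% without GCC cytosines. The number of members that met the call with both enzymes was 28 to 33 under all alternatives, out of 42 to 48 measured (60.4% to 70.5%), against 38.9% to 48.6% of the other genes. The median of members without CCAAT was 14.5% with CCMT, and that of members with it 23.2% with GCMT, in the wider region, the order of the groups being kept. No paired analysis was possible because 1 library per enzyme was analysed. The GCMT coverage limits single promoters, and with 1 library per enzyme analysed here the spread between cultures is unknown.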
